A study of Mus musculus with 6 samples.

Results

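The Shank and Homer scaffolds of the postsynaptic density were examined in hippocampal RNA of mice with added Glud1 (Tg) and of wt controls. The rule took every probeset (a set of short probes that together read 1 transcript) whose annotation gives a single gene symbol among Shank1, Shank2, Shank3, Homer1, Homer2 and Homer3, which found 12 of the 45037 non-control probesets on the array. These 12 cover 5 of the 6 genes: 6 read Homer1, 3 read Homer2, and Homer3, Shank1 and Shank3 have 1 each. Shank2 has no probeset annotated to it alone and was not measured here. After the dimmest 31% of probesets on the array had been left out, 11 of the 12 remained, and the dim one was a Homer1 probeset.

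The Tg line has a Glud1 transgene, coding for the mitochondrial enzyme that interconverts glutamate and alpha-ketoglutarate, and its Nse promoter (neuron-specific enolase) is active in neurons and not in glia. The controls were wt males of the same C57BL/6 background and age. Each group had 3 males of 9 months, untreated, and each mouse gave 1 Affymetrix array from the total RNA of its dissected hippocampus. The values are MAS5 signals, in arbitrary units on a linear scale. The label of the Tg group could not be checked on Glud1 itself, because the sources used here do not say whether the probesets read the messenger of the transgene. At its brighter probeset Glud1 gave signals of 5116 to 5596 in Tg and 5647 to 6383 in wt mice, lower in Tg mice without overlap (limma adjusted p = 0.595). Its other probeset gave 4640 to 5394 in Tg and 5031 to 5729 in wt mice, with overlap.

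Shank proteins are large scaffolds deep in the postsynaptic density of excitatory synapses, where they tie the complexes of glutamate receptors to the actin cytoskeleton. They reach NMDA and AMPA receptors through DLGAP and DLG proteins, and group I metabotropic glutamate receptors through Homer proteins. The EVH1 domain of Homer binds a proline-rich motif in Shank, in those metabotropic receptors, in IP3 and ryanodine receptors of the endoplasmic reticulum and in TRPC channels, and the coiled coil of the long Homer forms joins them into tetramers. The Homer1 gene also yields a short form without the coiled coil, whose messenger is induced by neuronal activity and which uncouples the partners of the long forms. Shank3 and Shank2 are known for their links to autism spectrum disorders, and Homer1 for its part in the scaling of synapses.

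Promoter sequence was at hand for 4 of the 5 measured genes, as windows of 300 bases that run from 250 before to 50 after a RefSeq start site in build GRCm38.p6. The first Homer1 window is shown because Homer1 is the member with an activity-induced transcript, the Homer2 window because it is a close relative without the same letters, and the Shank3 window because it holds the letters of the EGR motif. The letters TGACG, the core of the cyclic AMP response element, were searched on both strands and are in capitals in Homer1. The letters GCGTGGGCG and GCGGGGGCG, forms of the EGR motif, were searched likewise and are in capitals in Shank3, where they lie on the opposite strand. In the Homer2 window neither was found. The full element TGACGTCA holds TGACG on both strands and so counts more than once.
Homer1, chr13:93303507-93303806, plus strand: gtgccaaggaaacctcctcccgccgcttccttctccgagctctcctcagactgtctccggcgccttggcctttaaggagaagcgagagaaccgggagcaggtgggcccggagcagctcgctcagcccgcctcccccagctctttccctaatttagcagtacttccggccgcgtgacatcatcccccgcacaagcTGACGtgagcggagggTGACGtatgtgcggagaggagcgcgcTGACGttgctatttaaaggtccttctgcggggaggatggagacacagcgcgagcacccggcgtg
Homer2, chr7:81706876-81707175, minus strand: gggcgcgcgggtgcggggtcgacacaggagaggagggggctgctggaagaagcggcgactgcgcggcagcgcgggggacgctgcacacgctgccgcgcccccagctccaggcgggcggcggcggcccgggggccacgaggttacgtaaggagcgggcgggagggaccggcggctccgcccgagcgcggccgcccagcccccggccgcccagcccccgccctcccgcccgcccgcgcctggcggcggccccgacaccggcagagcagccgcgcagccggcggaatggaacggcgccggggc
Shank3, chr15:89499358-89499657, plus strand: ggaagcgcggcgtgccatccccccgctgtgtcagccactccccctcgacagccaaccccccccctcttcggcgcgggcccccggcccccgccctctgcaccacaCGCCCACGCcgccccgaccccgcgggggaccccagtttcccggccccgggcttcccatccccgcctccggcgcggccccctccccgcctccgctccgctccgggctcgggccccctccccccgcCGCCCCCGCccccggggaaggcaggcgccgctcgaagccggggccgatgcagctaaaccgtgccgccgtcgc
The Homer1 window holds TGACG 3 times, and the matches begin at 56, 40 and 14 bases before the start site. At least 1 match was found in 20.8% of the 32851 windows of this table and 3 or more in 1.03%. The other 5 windows of these genes (a second one of Homer1, 2 of Homer2, 1 of Homer3 and 1 of Shank3) hold none. The EGR letters begin at 146 and 22 bases before the start site of Shank3, and 3.47% of all windows hold at least 1 match. Among other letters searched, TATAAA (13.6% of windows) was found only in the second Homer2 window, and AP-1 (TGANTCA), CArG and MEF2 motifs were found in none of the 6. The windows differ in base composition, with 82.3% G and C in the Homer2 window printed here, 81.0% in that of Shank3 and 63.0% in that of Homer1, against a median of 52.7% over all windows. A match describes letters and was not tested as a binding site.

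The arrays were close in overall level but not the same, and they differed in some controls. The median signal of kept probesets was 309.7 to 318.9 on Tg and 297.3 to 305.4 on wt arrays. Every Tg median thus lay above every wt median. Centring each array on its median moved the log2 differences, Tg minus wt, by -0.08. The 3′ probeset of the 18S ribosomal RNA control read 976 to 3313 on Tg arrays, 13960 on wt 1, 10375 on wt 2 and 2287 on wt 3. The ratio of 3′ over 5′ signal at the Actb control, a measure of RNA integrity, was 1.64 to 1.69 on Tg arrays, 1.86 on wt 1, 1.95 on wt 2 and 1.70 on wt 3, so wt 1 and wt 2 stood apart on both. At the Gapdh control this ratio was 0.781 to 0.800 on Tg arrays, 0.908 on wt 1, 0.811 on wt 2 and 0.752 on wt 3. There wt 2 lay close to the Tg arrays. Pan-neuronal markers were present at summed signals of 92707 to 97582 in Tg and 93642 to 97712 in wt mice, with 3 of 6 higher and 3 lower (1 higher and 5 lower with median centring). All 6 markers of GABAergic interneurons were lower in Tg mice, with sums of 16252 to 18728 against 19634 to 23693. Summed markers of the subiculum and retrohippocampal cortex (5 of 6 lower, 4056 to 5024 against 5892 to 6469), astrocytes (4 of 5 lower) and microglia (3 of 5 lower) did not overlap between the groups either and were lower in Tg mice. For comparison, 7740 of all 13854 genes were lower and 6114 higher at their brightest kept probeset, a share near that of the microglial markers. Markers of dentate gyrus granule cells had a higher mean at 10 of 10 (9 with median centring), with summed signals of 20381 to 22919 against 15997 to 21083. Of the other lists, those of CA1, CA2 and CA3, striatum, thalamus, cerebellum, choroid plexus, oligodendrocytes, vessels and meninges overlapped in their sums, although 4 of 4 cerebellar, 4 of 4 choroid plexus and 5 of 5 meningeal markers had lower means in Tg mice. In the striatum list 3 of 5 markers were measured, 1 higher and 2 lower in Tg mice. The sum was carried by Ppp1r1b, the higher one, which overlapped (483.2 to 1048.4 in Tg against 491.8 to 632 in wt mice). The dopamine receptors were dimmer but lower in every Tg than in every wt mouse. Drd1 read 55.7 to 80.6 against 116.2 to 195.4, and 76.2 to 110.9 against 184.2 to 566.3 at its other probeset. Drd2 read 29.8 to 65.8 against 106.9 to 130.5. The Tg signals of Drd2 thus spanned the lowest mean level kept (47.8), and those of Drd1 at its dimmer probeset lay not far above it. The choroid plexus sum ranged from 4396 to 64402 among Tg mice. The part of tissue makeup and RNA quality in the results below was not tested. In such bulk RNA, fewer cells of a type and less RNA per cell cannot be told apart.

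Shank3 was bright and close in level between the genotypes. Its probeset 1419137_at gave 3795.1, 3242.2 and 3667.7 in Tg mice 1, 2 and 3 and 4339.2, 3309.1 and 3324.8 in wt mice 1, 2 and 3. The highest and the second highest values thus came from different groups, and the lowest value was that of Tg 2. Tg mice averaged 3568 ± 289.5 and wt mice 3658 ± 590.2 (SD, n = 3). The log2 fold change, Tg minus wt on the scale of log2(signal + 16) that is used for every difference, was -0.03 (SE 0.11, limma adjusted p = 0.955). The 95% confidence interval ran from -0.28 to 0.22, or from 0.826-fold to 1.17-fold. The wt mean rested in part on wt 1, and without that array the difference was 0.10.

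Shank1, the scaffold of mature spines, was read by a dim probeset only. Probeset 1444240_at gave 13.9, 173.9 and 67.9 in Tg mice and 120.5, 66.6 and 24.9 in wt mice. The lowest and the highest of the 6 values were both from Tg mice and differed 12.5-fold. The log2 fold change was 0.02 with an interval of -1.43 to 1.46 (SE 0.66, limma adjusted p = 0.996), or from 0.372-fold to 2.75-fold, so that smaller changes were not detectable in these arrays. It moved between -0.63 without Tg 2 and 0.71 without Tg 1.

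**Figure D1:**
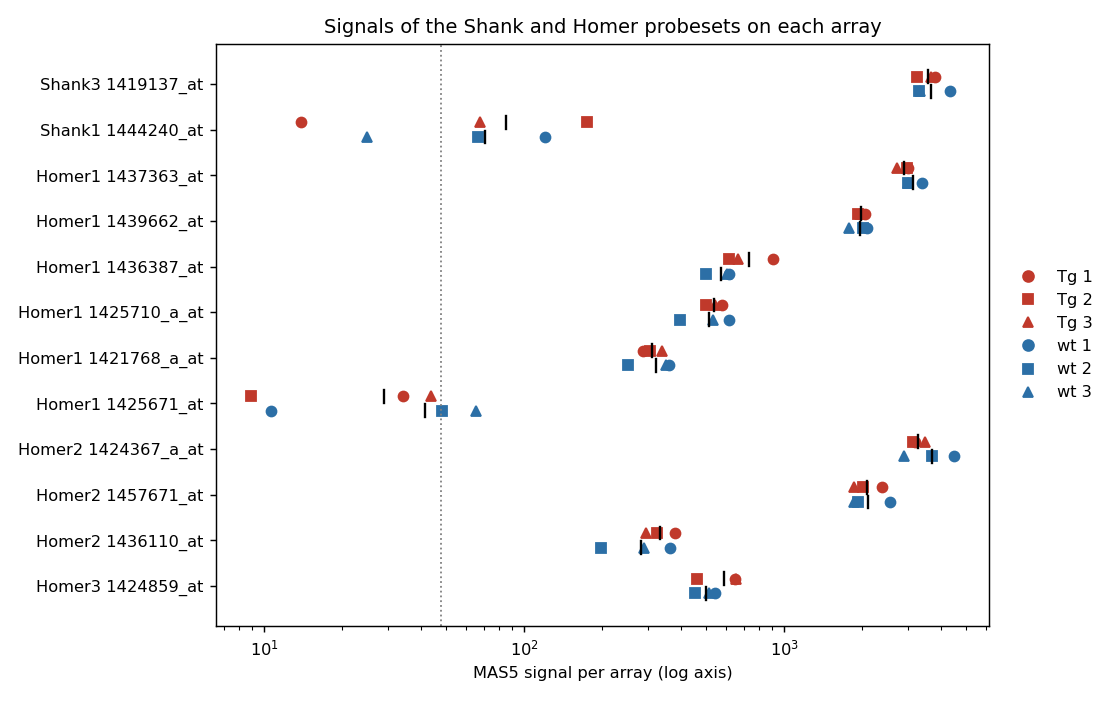
MAS5 signal (arbitrary units, log axis) of the 12 Shank and Homer probesets on each of the 6 arrays; red symbols are Tg and blue symbols wt mice, circles, squares and triangles are replicates 1, 2 and 3, black bars are group means (n = 3), and the dotted line is the lowest mean level kept (47.8). Shank3 and the bright Homer probesets lie between 1777 and 4502 on all arrays, whereas Shank1 spreads from 13.9 to 173.9.

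Homer1 encodes the scaffold that couples group I metabotropic receptors to calcium stores, and its 5 kept probesets gave 3 higher and 2 lower means in Tg mice. The brightest, 1437363_at, read 2985.9, 2958.9 and 2709.2 in Tg mice and 3396.8, 3005.7 and 2984.8 in wt mice. Only Tg 1 and wt 3 kept the groups from separating, and they lay 1.1 units apart, so that leaving out either separated them. The means were 2885 ± 153 and 3129 ± 232 (SD, n = 3), and the log2 fold change was -0.12 with an interval of -0.31 to 0.08 (SE 0.09, limma adjusted p = 0.717). It was -0.06 without wt 1 and -0.07 without Tg 3. With each array centred on its median the 2 groups no longer overlapped at this probeset, and the difference was then -0.20 (limma adjusted p = 0.546).

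A dimmer Homer1 probeset, 1436387_at, gave the largest difference and the smallest p of all 11. Its signals were 909.9, 612.8 and 667.2 in Tg mice and 614.0, 500.4 and 601.7 in wt mice. Tg 1 stood above the rest, and Tg 2 fell just below the highest wt value, so that 2 of 3 Tg arrays exceeded all wt arrays. The means were 730.0 ± 158 and 572.0 ± 62.3, and the log2 fold change was 0.33, or 1.26-fold, with an interval of -0.03 to 0.69 (SE 0.17, limma adjusted p = 0.559). It was 0.16 without Tg 1 and 0.44 without Tg 2, where the unadjusted p fell under 0.05 and the limma adjusted p was 0.456.

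The other Homer1 probesets gave little difference. Probeset 1439662_at read 2051.9, 1926.1 and 1955.8 in Tg and 2078.6, 2018.5 and 1777.3 in wt mice, with both the highest and the lowest value among the wt mice (log2 fold change 0.02, interval -0.20 to 0.23). Probeset 1425710_a_at read 575.7, 498.5 and 540.4 in Tg and 613.4, 399.4 and 530.6 in wt mice, again with both extremes among the wt mice (0.08, interval -0.29 to 0.46). Probeset 1421768_a_at read 286.0, 303.9 and 338.0 in Tg and 362.0, 249.9 and 352.5 in wt mice, and here too the wt values enclosed those of Tg (-0.04, interval -0.47 to 0.39). The limma adjusted p of these 3 was 0.905 to 0.969. The left-out probeset 1425671_at read 34.2, 8.9 and 43.9 in Tg and 10.6, 48.5 and 65.0 in wt mice and was not tested. Which Homer1 transcripts, long or short, each probeset reads is not given in the annotation used here, so no value is assigned to the activity-induced form.

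Homer2, a long-form relative of Homer1, was read brightly by 1424367_a_at at 3190.5, 3144.8 and 3496.4 in Tg mice and 4501.6, 3704.8 and 2882.9 in wt mice. The 3 Tg values lay close together inside the range of the wt values. The means were 3277 ± 191 and 3696 ± 809 (SD, n = 3), and the log2 fold change was -0.15 with an interval of -0.45 to 0.14 (SE 0.14, limma adjusted p = 0.748). Single wt arrays set this value, which was 0.0024 without wt 1 and -0.32 without wt 3, where the unadjusted p fell under 0.05 and the limma adjusted p was 0.431. At 1457671_at the signals were 2382.9, 2005.5 and 1850.9 in Tg and 2549.8, 1920.2 and 1864.3 in wt mice, nearly the same set of values in both groups (log2 fold change -0.02, interval -0.31 to 0.28, limma adjusted p = 0.980). The dim probeset 1436110_at read 379.5, 323.0 and 293.2 in Tg and 362.4, 197.3 and 288.3 in wt mice. There wt 2 was the lowest by far, and the log2 fold change of 0.25 (interval -0.24 to 0.75, limma adjusted p = 0.751) was 0.03 without that array, 0.16 without Tg 1, and 0.44 with no overlap between the groups without wt 1 (limma adjusted p = 0.503).

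Homer3, the third long-form scaffold, is best known from cerebellar Purkinje cells. Probeset 1424859_at gave 649.0, 461.9 and 653.8 in Tg mice and 540.0, 454.4 and 513.7 in wt mice. Tg 1 and Tg 3 exceeded every wt mouse, whereas Tg 2 was near the lowest wt value. The means were 588 ± 109 and 503 ± 43.8, and the log2 fold change was 0.21 with an interval of -0.16 to 0.57 (SE 0.17, limma adjusted p = 0.724). It was 0.12 without Tg 3, 0.13 without Tg 1, and 0.37 without Tg 2, where the unadjusted p fell under 0.05 (limma adjusted p = 0.487).

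Of the 11 kept probesets, 6 had a higher and 5 a lower mean in Tg mice, where 53.2% of all kept probesets on the array were higher (7 and 4 with quantile normalization, 3 and 8 with median centring). The median log2 fold change was 0.02 over the 11 and 0.02 over all 31076. None of the 11 was called at an adjusted p under 0.05 by limma, as was none of all kept probesets (0%, smallest adjusted p 0.143), whereas the Cyber-T test called 65 of all kept probesets and none of the 11. None of the 11 reached an unadjusted p under 0.05 by limma, against 9.69% of all kept probesets, and none passed a 1.3-fold difference at that p, against 6.91%. The Tg and wt arrays overlapped at every one of the 11, whereas 15.3% of all kept probesets showed no overlap. The smallest adjusted p of the 11 was 0.559. The intervals still include a 1.3-fold difference at 7 of the 11 probesets, so that the lack of a call does not show equal levels.

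**Figure D2:**
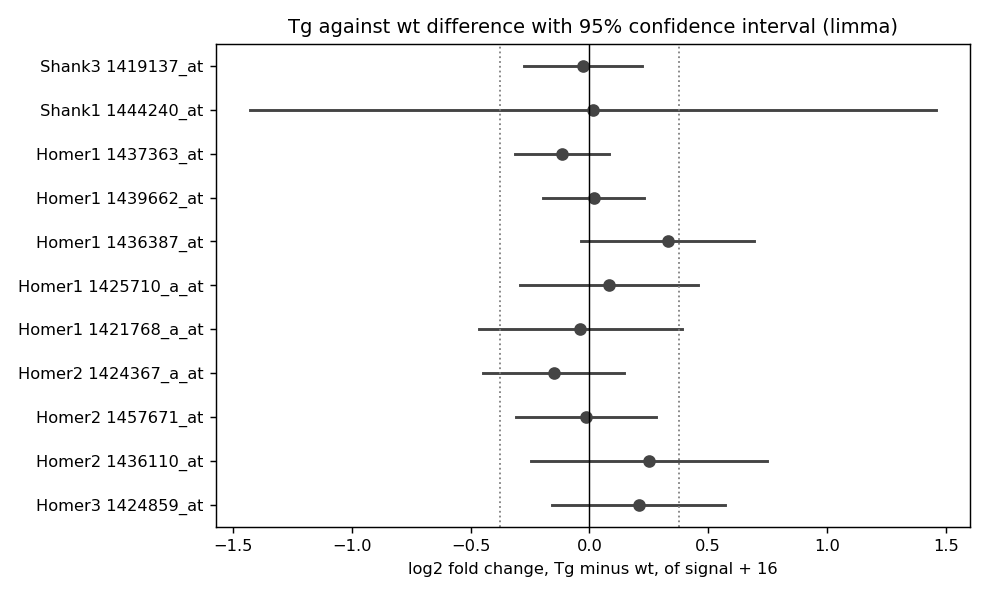
Log2 fold change (Tg minus wt, of signal + 16) of the 11 kept Shank and Homer probesets, with points for the estimate and lines for its 95% confidence interval from limma (3 Tg and 3 wt arrays); dotted lines mark a 1.3-fold difference. Every interval spans 0, from the narrow one of Homer1 1437363_at (-0.31 to 0.08) to that of Shank1 (-1.43 to 1.46).

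Bright and dim probesets of the same gene kept their order on every array. For Homer1 the 6 probesets ranked alike on 6 of 6 arrays, and the brightest exceeded the dimmest kept one 8.02-fold to 12.03-fold. For Homer2 the 3 probesets ranked alike on 6 of 6 arrays, with a ratio of 8.41 to 18.8. Since probes differ in affinity, these ratios do not compare transcripts, and only their change with genotype was tested. The difference between 1437363_at and 1436387_at of Homer1, on the log2 scale, was 1.70, 2.24 and 2.00 on the Tg arrays and 2.44, 2.55 and 2.28 on the wt arrays. All 3 Tg arrays lay below all 3 wt arrays, so the dimmer probeset was closer to the bright one in Tg mice by 0.44. The 2-sided exact permutation test gave p = 0.1, the smallest that 3 against 3 arrays allow, and 0.4 after adjustment over the 6 pairs. With quantile normalization the difference was -0.38 and the groups overlapped (exact permutation p = 0.2).

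The other 5 pairs overlapped between the genotypes, and all 5 differences were negative. For Homer1 they were -0.13 with 1439662_at, -0.20 with 1425710_a_at and -0.08 with 1421768_a_at (exact permutation p = 0.2, 0.3 and 0.7). For Homer2 they were -0.14 with 1457671_at and -0.40 with 1436110_at (exact permutation p = 0.5 and 0.2). The pairs of 1 gene share the bright probeset, so their common sign is not independent. Mixed signs among the probesets of 1 gene were frequent on this array: of 314 genes with 5 kept probesets 84.4% had both signs, as Homer1 did, and of 6780 genes with at least 2 it was 58.5%.

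**Figure D3:**
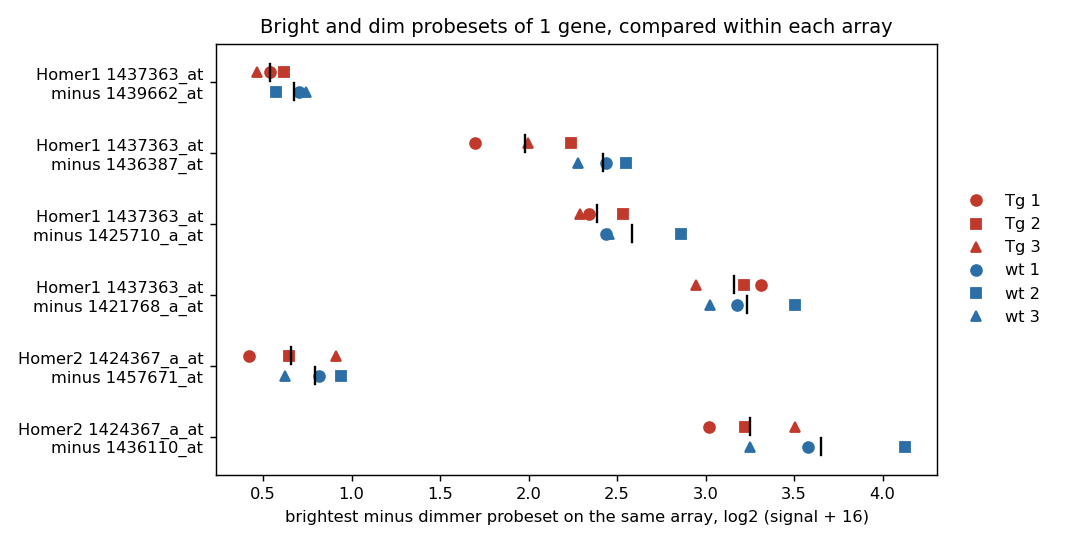
Difference in log2(signal + 16) between the brightest probeset of Homer1 or Homer2 and each dimmer kept probeset of the same gene on the same array, with red symbols for Tg, blue for wt, circles, squares and triangles for replicates 1, 2 and 3, and black bars for group means (n = 3). The groups separate only for Homer1 1437363_at minus 1436387_at (1.70 to 2.24 in Tg and 2.28 to 2.55 in wt mice).

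Single arrays stood out across the probesets. The wt 1 array was the highest of the 6 at 7 of 11 probesets, covering Shank3, 4 of Homer1 and 2 of Homer2, whereas it was highest at 19.9% of all kept probesets. The wt 2 array was the lowest at 5 of 11, including 3 of Homer1, against 20.1% of all kept probesets. Both arrays are those with high 18S and Actb control values, and the part of these in the pattern was not tested. With wt 3 as the only wt array, 9 of the 11 probesets were higher in Tg mice and 2 lower (51.1% of all kept probesets were higher). Shank3 was then at 0.10, Homer2 1424367_a_at at 0.18 and Homer2 1457671_at at 0.15, all of the opposite sign. Shank1 moved furthest, to 0.93, whereas Homer1 1436387_at stayed higher at 0.25 and Homer3 at 0.17.

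**Figure D4:**
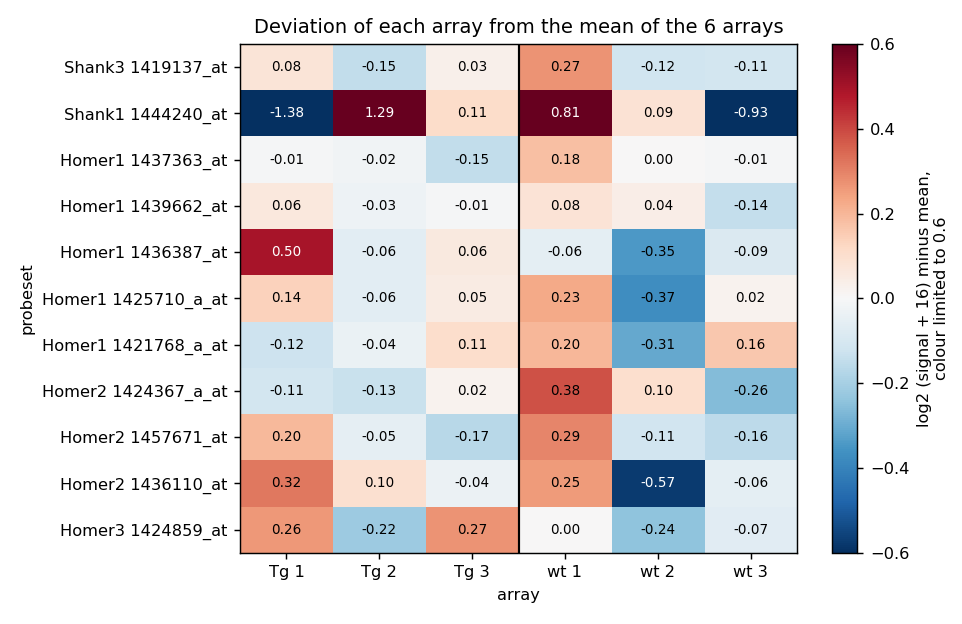
Deviation of each array from the mean of all 6 arrays in log2(signal + 16) for the 11 kept probesets (rows) and the 6 arrays (columns, Tg left and wt right of the line), with the value printed in each cell and the colour limited to 0.6 either way. The wt 1 column is positive at most probesets (0.27 at Shank3, 0.38 at Homer2 1424367_a_at), whereas wt 2 is at -0.57 for Homer2 1436110_at.

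The binding partners of Shank and Homer were read at the brightest kept probeset of each gene. Of 52 listed genes 47 had a kept probeset annotated to them alone. Without the activity-induced genes, 34 were measured, 19 with a higher and 15 with a lower mean in Tg mice (21 and 13 with quantile normalization, 17 and 17 with median centring), and their median log2 fold change was 0.09, where that of all 13854 genes was -0.03. An unadjusted limma p under 0.05 was reached by 6 of the 34 with a higher and 4 with a lower signal, against 2.9% and 4.97% of all genes. The groups did not overlap at 7 higher and 4 lower genes, against 5.2% and 8.81% of all genes. These lists were made with earlier results of these data known, so the shares are a description and not independent evidence. None passed the adjusted threshold, and the limma adjusted p of every partner gene was 0.206 or more.

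Among the receptors and channels that Homer binds, Grm5, the group I metabotropic receptor of the forebrain, read 4317.4, 4013.4 and 4021.6 in Tg and 3938.0, 4701.4 and 4129.9 in wt mice, so the Tg values lay within the wt range (log2 fold change -0.04). The IP3 receptor Itpr2 was at -0.27 at its brightest probeset, which read only 186.6 to 338.2, and at -0.29 and 0.06 at 2 others, with overlapping arrays. Its remaining probeset, also dimmer than the first, was at 1.46 without overlap. Whether both groups lay above the filter there was not checked. All 3 ryanodine receptors had higher means in Tg mice, and Ryr2, a calcium release channel of the endoplasmic reticulum, gave 3393.5, 2892.5 and 2991.3 in Tg and 2169.6, 2809.5 and 2617.1 in wt mice without overlap (0.29, limma adjusted p = 0.427). The 3 TRPC channels had higher means as well (2 of 3 with median centring), and the cation channel Trpc5 did not overlap (0.46, limma adjusted p = 0.473).

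Among the scaffolds that link Shank to ionotropic receptors, Dlg4, the gene of PSD-95, showed the largest difference. It gave 2314.3, 1654.5 and 2536.7 in Tg and 1554.1, 943.4 and 1501.7 in wt mice. All 3 Tg values were above all wt values, also at the other 2 Dlg4 probesets, and the log2 fold changes were 0.71, 1.09 and 0.46 (limma adjusted p = 0.260 at the first). Dlg1, the gene of SAP97, was lower without overlap, at 2628.8, 2808.7 and 2603.8 in Tg and 3299.2, 3298.7 and 3106.8 in wt mice (-0.27, limma adjusted p = 0.326). Dlgap1, which joins PSD-95 to Shank, was lower without overlap at its brightest probeset (-0.19, limma adjusted p = 0.515), but its other 4 kept probesets had higher means. Dlg1 at its other 2 probesets was at 0.01 and -0.06, with overlap.

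Of 12 actin and membrane partners 6 had higher and 6 lower means (7 higher with quantile normalization, 5 with median centring). Dbn1, the actin-binding drebrin of spines, was higher without overlap (0.24, limma adjusted p = 0.446), as was Sipa1l1, a GTPase-activating protein for Rap that binds PSD-95 (0.26, limma adjusted p = 0.328). Among other postsynaptic density proteins, Camk2b, a subunit of calcium calmodulin-dependent kinase II, gave 7687.5, 6723.6 and 6455.4 in Tg and 5437.4, 5597.0 and 5739.7 in wt mice (0.31, limma adjusted p = 0.258). The adhesion molecule Nlgn2 of inhibitory synapses was lower without overlap at its brightest probeset (-0.28, limma adjusted p = 0.351) and at 0.28 with overlap at its other one.

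The activity-induced genes, the class to which the short Homer1 transcript belongs, had higher means in Tg mice at 12 of 13, with a median log2 fold change of 0.55. An unadjusted limma p under 0.05 with a higher signal was reached by 11 of 13 (2.9% of all genes) and no overlap by 9 of 13 (5.2% of all genes), but none passed the adjusted threshold. The list was made with knowledge that such genes are higher in these Tg mice and is not independent evidence of it. Fos, an AP-1 subunit, gave 1403.8, 1930.1 and 2036.0 in Tg and 458.7, 939.0 and 1240.6 in wt mice (1.11, limma adjusted p = 0.235). Arc, which removes AMPA receptors from synapses, gave 1831.5, 1585.7 and 1550.2 in Tg and 634.1, 942.8 and 1457.1 in wt mice (0.78, limma adjusted p = 0.283). In both, wt 3 came closest to the Tg values. The smallest p of these was that of the nuclear receptor Nr4a1 (0.69, limma adjusted p = 0.206). The transcription factors Fosb (1.05), Npas4 (0.60), Junb (0.55) and Egr4 (0.55) and the neurotrophin Bdnf (0.31) did not overlap either. Egr2, also a transcription factor, read 197.3, 176.9 and 281.7 in Tg and 17.9, 32.1 and 135.1 in wt mice, where its mean level lay below the lowest level kept, so that it passed the filter only through the Tg arrays and its fold change is not given. Its other probeset read 131.8 to 167.6 in Tg and 36.2 to 105.7 in wt mice. Without Egr2, 11 of 12 activity-induced genes had higher means, 10 of 12 an unadjusted limma p under 0.05 and 8 of 12 no overlap, with a median of 0.55.

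The pattern over the wt arrays varied among the activity-induced genes, whereas the Homer1 probesets differed only in which wt array was lowest. Fos and Arc were lowest on wt 1, as were most of the 13, whereas Fosb and Egr1 were lowest of the wt arrays on wt 2 and Nptx2 on wt 3. All 5 kept Homer1 probesets were highest of the wt arrays on wt 1. The lowest wt array was wt 2 at 1436387_at, 1425710_a_at and 1421768_a_at, and wt 3 at 1437363_at and 1439662_at. With wt 3 as the only wt array, 12 of 13 activity-induced genes still had a higher value in Tg mice, with a median of 0.33, where 51.1% of all kept probesets were higher. Promoter windows were at hand for 9 of the 13, and each of the 9 genes had TGACG in at least 1 window, although Bdnf has 7 windows and Egr2 has 5. Counted by window, 11 of 19 held the letters, against 20.8% of all windows. Nr4a1 holds the letters 4 times and Dusp1 3 times in 1 window, as many as the Homer1 window printed above or more. The remaining genes hold them at most 1 or 2 times in a window.

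**Figure D5:**
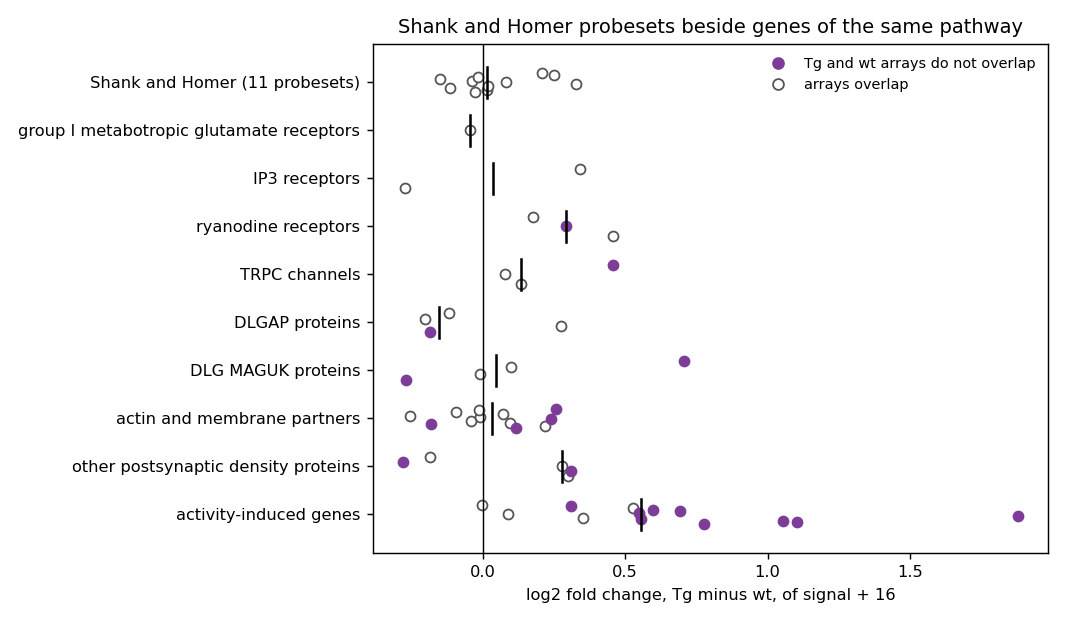
Log2 fold change (Tg minus wt, of signal + 16) of the 11 kept Shank and Homer probesets (top row) and of 47 partner and activity-induced genes at their brightest kept probeset, by role; 1 point is 1 probeset, filled purple where the 3 Tg and 3 wt arrays do not overlap and open where they do, and the black bar is the row's median. The activity-induced genes have a median of 0.55, the rightmost point is Egr2, whose wt level was below the filter, and no Shank or Homer probeset is filled.

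The genes whose levels followed those of each scaffold most closely over the 6 arrays were found by Pearson's r among 13853 others, as a description without a test, since 6 arrays and so many genes make high values easy to find. For Homer1 they were Rnf44 (r = 0.999) and Atg10 (r = 0.995), and Rnf44 read 2519.4, 2464.1 and 2119.3 in Tg and 3081.9, 2546.1 and 2490.6 in wt mice, highest on wt 1 and lowest on Tg 3 like Homer1. For Shank3 they were Map2k5 (r = 0.996) and Rspry1 (r = 0.985), both highest on wt 1 and lowest on Tg 2 as Shank3 was. For Homer2 they were Gm20559 (r = 0.997) and Kcng4 (r = 0.994), for Homer3 Metap1 (r = 0.997) and Fam120a (r = 0.995), and for Shank1 Ccdc151 (r = 0.989) and Gzmm (r = 0.986). None of the 10 is a listed partner.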

How the data were processed

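Hippocampal RNA of 3 Tg and 3 wt mice was hybridised to 1 Affymetrix Mouse Genome 430 2.0 array per mouse. The deposited intensities are MAS5 signals on a linear scale, computed by the authors (MAS5 is also named in the submitters' processing notes) and scaled to a common level per array. The methods analyse RMA values, which were not used here. No detection calls were used.

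Of 45101 probesets 64 were controls, and the remaining 45037 have 1 annotated gene (34945), several (932) or none (9160). Older symbols were updated through gene IDs. The 31% with the lowest mean of log2(signal + 16) were left out, which kept 31076. The added constant shrinks differences of dim probesets. The groups were contrasted in limma 3.58.1 (R 4.3.3, variances moderated along the intensity) on log2 values computed from the deposited signals, with Benjamini-Hochberg adjustment over all kept probesets. Bright and dim probesets were compared per array by a 2-sided exact permutation test that enumerates the splits of the arrays, with Benjamini-Hochberg adjustment over the pairs (scipy 1.17.1). For each gene the brightest kept probeset annotated to it alone was taken (13854 genes). The scripts were tested on simulated data. The number of arrays limits the precision, and intervals cover the spread between these mice.

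Each array was grouped by its title. All member probesets were described. Partner genes were named at an unadjusted p under 0.05 without overlap, or as the brightest of their role where none met this, together with the 2 genes most correlated with each member gene. Other named values were chosen after they were seen. The members, the partner lists and the 15 marker lists were chosen with earlier results of these data known. Promoter windows came from RefSeq (GRCm38.p6). The alternatives were added constants of 1 and 64, quantile normalization, median centring, no filter, the brightest 50%, limma with array weights or with no trend, the Cyber-T test (window 101, confidence 10), the replicate block and leaving out each array. Use of wt 3 as the only wt array was added after seeing the data.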

Additional observations from a re-analysis of the deposited data

How the results depend on the processing

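No Shank or Homer probeset was called under any of the 17 alternatives, and the smallest adjusted p of the members ran from 0.431 to 0.948 over them. Over all kept probesets Cyber-T called 65 and the replicate block 1, and leaving out single arrays gave 0 to 6. Members at an unadjusted p under 0.05 numbered 1 with the replicate block (Homer1 1436387_at) and 0 to 2 without single arrays. Those past 1.3-fold numbered 0 to 1 and those without overlap 0 to 2 without single arrays, and the latter were 1 with median centring. With wt 3 as the only wt array no count of overlap is given, since a single array falls outside the range of the Tg arrays more easily. Of the partner genes with the activity-induced genes included, 21 had an unadjusted p under 0.05, against 13 with median centring, 10 without the intensity trend and 5 with wt 3 alone (14 to 21 without single arrays). Of the activity-induced genes it was 11, against 7 without the trend, 2 with wt 3 alone and 7 to 10 without single arrays. Over all kept probesets it was 3011, against 1830 with wt 3 alone. The tests with wt 3 alone take the wt spread to be that of the Tg arrays. The split of the 3011 moved with scaling, from 61.0% higher (1837 higher, 1174 lower) to 55.2% with quantile normalization and 34.8% with median centring (1083 higher, 2029 lower), and the members with a higher mean numbered 6, 7 and 3. All 20 partner genes named here kept their sign under both scalings.

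Of the refits of single members 27 changed sign and 159 did not, all without a call, and the cause was not tested. Shank1 was at -0.0815 with a constant of 1, -0.0612 with quantile normalization, -0.0670 with median centring and -0.63 to 0.71 without single arrays. Shank3 was at 0.0041 with quantile normalization, 0.0304 with array weights, 0.0983 with wt 3 alone and -0.0930 to 0.1017 without single arrays. Homer2 1457671_at was at 0.0025, 0.0558 and 0.1485 under the same settings and -0.12 to 0.13 without single arrays, and Homer2 1424367_a_at at 0.18 with wt 3 alone and -0.32 to 0.0024. With median centring Homer1 1439662_at was at -0.0655 and 1425710_a_at at -0.0009, and without single arrays they ranged from -0.0506 to 0.0615 and from -0.0842 to 0.2156, and 1421768_a_at from -0.2014 to 0.0524. The bright minus dim difference of Homer1 1421768_a_at was 0.0193 with quantile normalization, 0.1327 with wt 3 alone and -0.1821 to 0.0583 without single arrays, and that of Homer2 1457671_at 0.0339 with wt 3 alone. No pairing of the arrays by replicate number was seen. Deviations of Tg and wt arrays of 1 number correlated at -0.0159, 0.00779 and 0.0333, and those of different numbers at -0.0422 to 0.0364. With 3 arrays per group this cannot exclude a pairing. The abstract of the paper calls the wt mice littermates, but the array titles name no pairs.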
